A study of Mus musculus with 80 samples.

Results

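Imprinted genes are expressed mainly or only from the copy inherited from one parent. The choice of copy is set by DNA methylation laid down in the egg or the sperm at imprinting control regions, and it is kept in the embryo by maintenance methylation and by factors such as ZFP57 with its partner TRIM28. The genes lie in clusters in which protein-coding genes, many of them regulators of fetal growth and of the placenta, share a control region with a long non-coding RNA. A list of 40 imprinted mouse genes was followed here. They were found by symbol in a table of 25965 genes, where 36 of the 40 had a row, and by the 1118 bins of 2 kb (of 1026637) that overlapped them in a table of H3K9me2, the dimethyl mark on lysine 9 of histone H3. Rian, Mirg, Kcnq1ot1 and Peg13, which are non-coding RNAs, had no row, so no RNA value is given for them.

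The cells were mouse embryonic stem cells (ESCs) of the wild-type line E14, grown in serum with the cytokine LIF and then moved to 2i. This is the serum-free medium N2B27 with LIF, the MEK inhibitor PD0325901 and the GSK3 inhibitor CHIR99021, in which ESCs lose most of their DNA methylation. RNA-seq was done on 3 libraries each from serum and from 6, 24 and 72 h of 2i, and H3K9me2 ChIP-seq on cells from serum, 24 h of 2i and lasting culture in 2i (LT2i), with 2 bound libraries and 1 input each. The study asked how methylation is lost on this change of medium, and methylation itself was not analysed here. RNA reads were not split by parental allele, so each value is the sum of both copies.

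RNA levels are log2 values in which length and depth had been allowed for, and the whole reads behind them could be recovered for 25946 of the 25965 genes (10672413 to 15761446 reads in genes per library). Libraries of a group had pairwise correlations of 0.947 to 0.994 across the 12306 genes tested, the lowest between 24 h replicates 1 and 3. At 24 h, changes ran with gene span. The 20% of genes with the shortest span had median changes of 0.73, 0.64 and 0.19 on the log2 scale in replicates 1, 2 and 3, and the longest 20% -0.55, -0.49 and -0.17. At 72 h, replicate 2 had the same pattern, with 0.45 for the shortest and -0.29 for the longest genes. All 8 ESC markers checked had reads, and their summed linear level was 1506 to 1764 in serum, 1831 to 3837 at 24 h and 1958 to 3347 at 72 h. By gene, 4 of them were higher and 2 lower at both 24 and 72 h (limma, adjusted p under 0.05). The summed level of 8 fibroblast markers was 28.8 to 29.8 in serum and 11 to 14.1 at 72 h (Lum without reads in any library), and that of 6 trophoblast markers 11 to 13.4 in serum and 43.2 to 47.8 at 72 h, to which Tfap2c, also a gene of naive ESCs, gave most reads. That of 3 neural markers was 5.93 to 6.49 in serum and 1.47 to 1.59 at 72 h, and that of 4 mesoderm markers 2.18 to 2.70 and 1.05 to 1.24. For 6 endoderm markers it was 4.41 to 4.79 and 3.58 to 4.31. A sum can cover genes that went both ways. Of 5 trophoblast markers tested, 2 were higher and 3 lower at 24 h, and 2 higher and 1 lower at 72 h. The part of these shifts in the results was not tested. In bulk RNA, fewer cells of a type and less RNA per cell cannot be told apart.

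Among the 31 imprinted genes with enough RNA to test, the changes went in both directions, and at 72 h neighbours passed in opposite directions in 2 loci, Peg10/Sgce and Kcnq1. At 6 h of 2i, 5 of the 31 passed (limma, adjusted p under 0.05), with 3 higher and 2 lower, a share of 16.1%. The 3 higher were Plagl1, Slc22a18 and Usp29, which reached the level needed for the test only in 2i libraries. So this count is not free of the filter on low values. Over all genes tested 15.6% passed, 9.13% of them higher and 6.48% lower as shares of all. At 24 h 17 passed (54.8%), 6 higher and 11 lower, beside 63.3% of all genes (34.2% higher, 29.1% lower). At 72 h 18 passed (58.1%), 7 higher and 11 lower, beside 52.2% of all genes (25.7% higher, 26.5% lower). Plagl1 and Slc22a18 were again among the higher at 24 and 72 h. Ascl2, among the lower at 72 h, reached the level needed only in serum and 6 h libraries. The counts at 24 and 72 h are therefore not free of the filter either. The share of members that passed was thus near that of all genes at each time, and the median log2 change of the members was 0.02, -0.20 and -0.10 beside 0.01, 0.11 and -0.01 over all genes. Of all genes tested, 44.4%, 64.7% and 63.5% had 3 libraries that did not overlap with serum at 6, 24 and 72 h, so a lack of overlap, where it is given for a gene, is common. Leaving out 1 library at a time gave 3 or 4 members at 6 h, 14 to 24 at 24 h and 17 or 18 at 72 h. A fit of only the 6 libraries compared gave 14 members at 6 h (9 higher, 5 lower), beside 3585 of all genes in place of 1920. The count of 24 was reached without 24 h replicate 3, when 8845 of all genes passed in place of 7786, and the range over all genes at 24 h was 6698 to 8845.

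**Figure D1:**
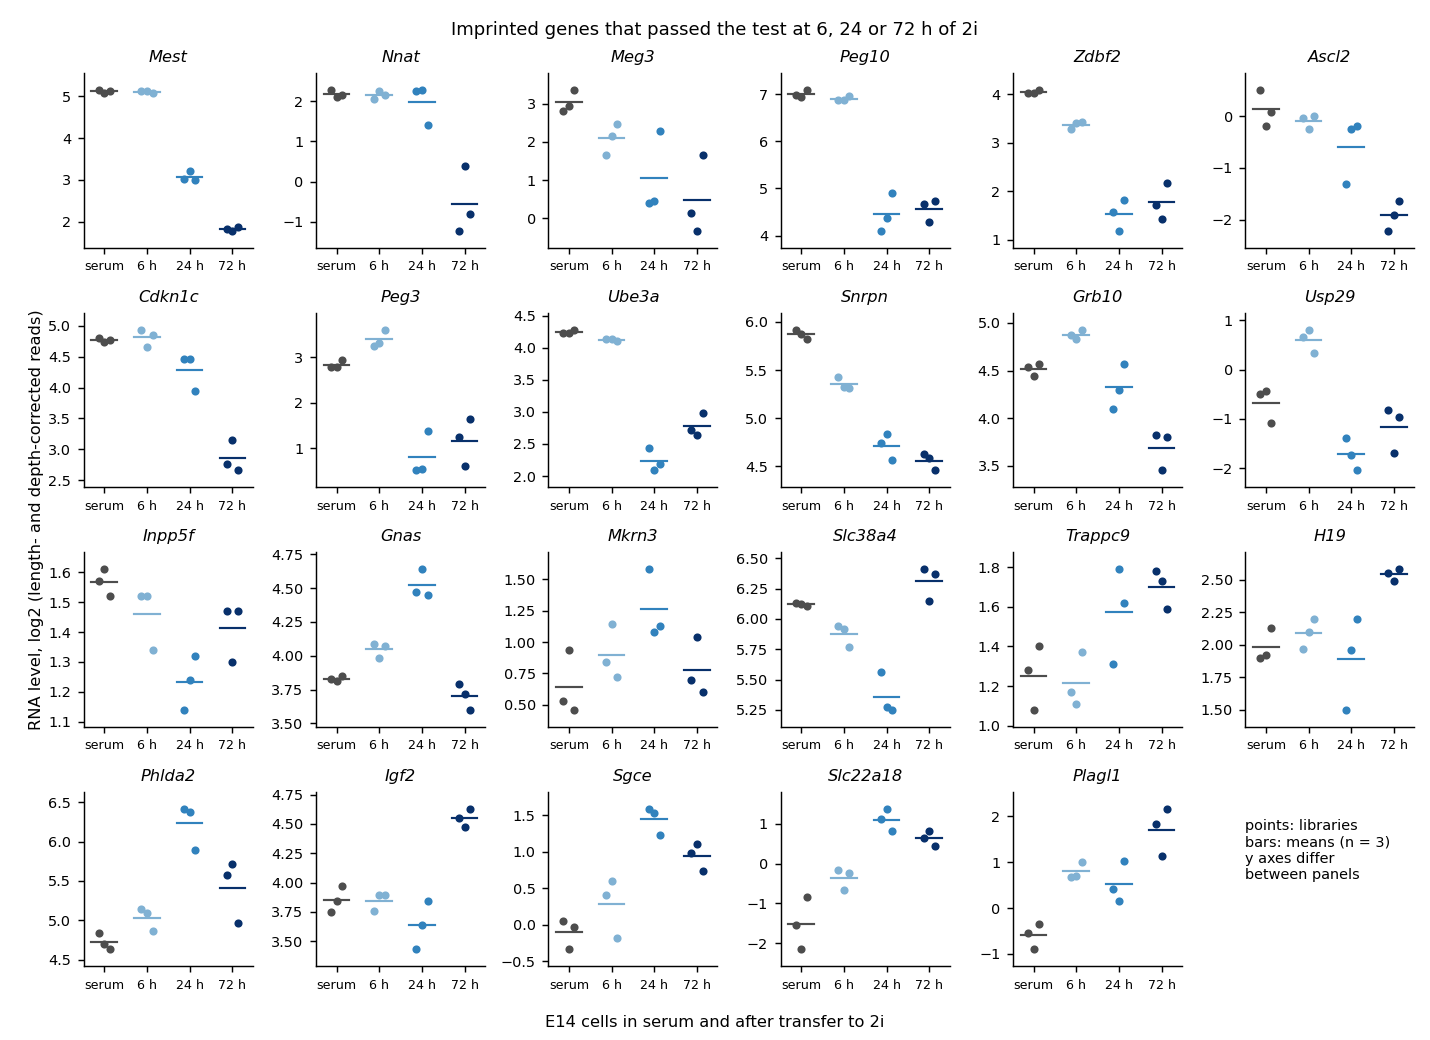
RNA level (log2, corrected for length and depth) of the 23 imprinted genes that passed the test in at least 1 comparison with serum; points are libraries and bars the means of 3. Mest, Nnat and Peg10 sit below all serum libraries in each 72 h library, Plagl1 and Slc22a18 sit above serum at each time, and Gnas and Slc38a4 stand apart from serum at 24 h with 72 h close to serum again.

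Mest, a paternally expressed gene for an alpha/beta hydrolase-like protein, fell most. Its row lies at chr6:30723547-30748455 on the plus strand (GRCm38, as for all coordinates here). It read 5.15, 5.08 and 5.13 in serum, 5.12, 5.13 and 5.09 at 6 h, 3.02, 3.21 and 2.99 at 24 h, and 1.83, 1.78 and 1.86 at 72 h. The 6 h libraries lay within the serum range, and the later libraries all lay far below. The log2 change was -2.04 (SE 0.09, adjusted p = 2.87e-08) at 24 h and -3.29 (SE 0.09, adjusted p = 6.2e-10) at 72 h in limma, the latter a 9.81-fold lower level. The fall from 24 to 72 h, 1.25 on the log2 scale, also passed (adjusted p = 3.48e-06).

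Nnat, which encodes the membrane proteolipid neuronatin and is expressed from the paternal copy, fell later. In serum it read 2.28, 2.11 and 2.15, at 6 h 2.07, 2.27 and 2.17, at 24 h 2.25, 2.28 and 1.41, and at 72 h -1.23, 0.38 and -0.81. Only the 72 h libraries stood apart from serum as a group. The log2 change at 72 h was -2.73 (SE 0.35, adjusted p = 5.77e-05, limma), with 18 to 44 reads per library against 123 to 186 in serum. Blcap, the gene that Nnat lies within, had a log2 change of -0.19 at 72 h and did not pass.

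The promoters of the genes that fell and rose most at 72 h are shown for their CpG content and for the letters bound by ZFP57, a factor whose RNA is given further on. The 2 largest falls and 2 largest rises with a promoter in RefSeq were taken, and the 250 bases before the start are printed from RefSeq (GRCm38.p6), all on the plus strand. Capitals mark TGCCGC, the core letters that ZFP57 binds when they are methylated, or its reverse complement GCGGCA. For Mest, 2 of 3 windows tie for the most CpG (14), and the first of these is shown, chr6:30737800-30738049. The others are chr2:157559828-157560077 (Nnat), chr10:13090582-13090831 (Plagl1) and chr7:143473539-143473788 (Slc22a18).
Mest: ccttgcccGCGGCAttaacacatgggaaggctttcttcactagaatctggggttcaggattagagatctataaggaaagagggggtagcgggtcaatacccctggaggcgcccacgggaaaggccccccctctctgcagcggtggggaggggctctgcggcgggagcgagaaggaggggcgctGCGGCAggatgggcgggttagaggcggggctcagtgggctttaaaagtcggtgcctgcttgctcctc
Nnat: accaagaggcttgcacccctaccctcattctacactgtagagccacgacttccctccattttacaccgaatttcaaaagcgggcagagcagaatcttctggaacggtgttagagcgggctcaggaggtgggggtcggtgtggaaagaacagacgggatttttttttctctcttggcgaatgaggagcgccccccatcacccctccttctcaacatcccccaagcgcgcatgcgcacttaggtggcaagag
Plagl1: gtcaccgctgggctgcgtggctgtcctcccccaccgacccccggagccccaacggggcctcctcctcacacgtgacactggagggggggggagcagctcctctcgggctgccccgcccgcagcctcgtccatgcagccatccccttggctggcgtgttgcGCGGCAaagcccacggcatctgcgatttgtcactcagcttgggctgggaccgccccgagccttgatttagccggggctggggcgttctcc
Slc22a18: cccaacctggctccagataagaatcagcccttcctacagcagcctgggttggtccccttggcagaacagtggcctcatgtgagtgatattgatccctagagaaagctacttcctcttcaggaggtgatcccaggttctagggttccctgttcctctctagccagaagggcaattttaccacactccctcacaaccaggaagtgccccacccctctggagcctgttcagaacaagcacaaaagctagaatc

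The Mest window held 14 CpG and the letters at 2 places, the Nnat window 12 CpG and none, the Plagl1 window 19 CpG and 1 place, and the Slc22a18 window neither a CpG nor the letters. The letters were found on either strand in 8.68% of all 32851 promoter windows and in 6 of the 48 windows of members. By gene, 9.84% of all genes and 5 of the 31 members that RefSeq promoters covered had them in a window. The median window held 10 CpG among members and 6 among all. Reads of H3K9me2 at the starts of these genes are given raw, not scaled to the depth of each library. The 2-kb bin with the start of Mest held 0 and 3 bound reads in serum, 2 and 2 at 24 h and 8 and 6 in LT2i, beside 22 to 26 input reads, and the bin with the start of Plagl1 held 1 and 0, 4 and 5, and 1 and 2, beside 16 to 22. Bound reads in the Nnat bin ran from 2 to 9 (input 21 to 32) and in the Slc22a18 bin from 3 to 7 (input 10 to 24). So the start bins of all 4 genes held fewer bound than input reads in every condition. At 24 h the input was also deeper (23785128 reads) than the bound libraries (14396552 and 14940447). No share over all gene starts was taken. A log2 ratio to input above 0 was found in only 26.5%, 25.8% and 22.1% of all gene bodies in serum, at 24 h and in LT2i. Fewer bound reads are thus common and not particular to these genes.

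**Figure D2:**
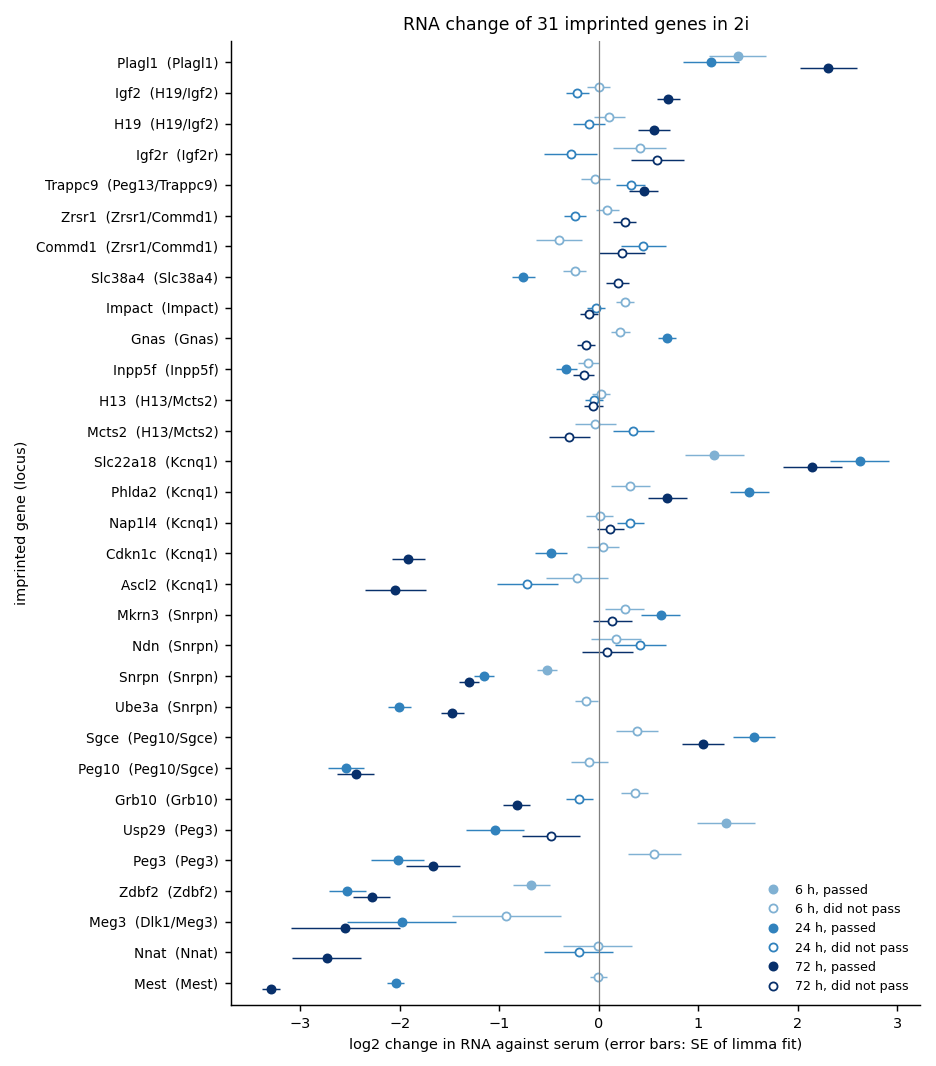
Log2 change in RNA against serum at 6, 24 and 72 h for the 31 imprinted genes tested, grouped by locus; error bars are the SE of the limma fit and filled points passed at an adjusted p under 0.05. Mest, Nnat and Meg3 hold the lowest 72 h points (-3.29, -2.73 and -2.55), Plagl1 and Slc22a18 the highest (2.31 and 2.15), and the Peg10/Sgce and Kcnq1 loci have points on both sides of 0.

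Peg10 and Sgce start next to each other and run apart, Peg10 at chr6:4747306-4760517 on the plus strand and Sgce at chr6:4674350-4747204 on the minus strand. Both are expressed from the paternal copy. Peg10, a retrotransposon-derived gene needed in the placenta, was the most highly expressed member in serum, at 6.98, 6.94 and 7.09. It stood at 6.89, 6.87 and 6.97 at 6 h, at 4.10, 4.38 and 4.91 at 24 h, and at 4.66, 4.29 and 4.73 at 72 h. Sgce, which encodes epsilon-sarcoglycan, was near the limit of the test in serum at 0.05, -0.34 and -0.03 and stood at 0.41, 0.60 and -0.18 at 6 h, 1.59, 1.53 and 1.23 at 24 h, and 0.98, 1.11 and 0.74 at 72 h. At 24 and 72 h every library lay below serum for Peg10 and above serum for Sgce. The log2 changes were -2.54 (SE 0.18, adjusted p = 1.11e-06) and -2.44 (SE 0.18, adjusted p = 9.93e-07) for Peg10, and 1.56 (SE 0.21, adjusted p = 8.46e-05) and 1.05 (SE 0.21, adjusted p = 0.00143) for Sgce (limma). In reads, Sgce went from 38 to 69 per library in serum to 158 to 160 at 24 h, while Peg10 had 12772 to 20804 in serum and 1946 to 4429 at 24 h.

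The Kcnq1 cluster on chromosome 7, where the paternal non-coding RNA Kcnq1ot1 silences its neighbours in cis, also split. Cdkn1c, the maternally expressed CDK inhibitor p57, read 4.80, 4.74 and 4.77 in serum, 4.94, 4.66 and 4.85 at 6 h, 4.47, 4.46 and 3.94 at 24 h, and 2.76, 3.15 and 2.66 at 72 h. Ascl2, a maternally expressed transcription factor of trophoblast, read 0.50, -0.19 and 0.08 in serum, -0.03, -0.24 and 0.01 at 6 h, -1.31, -0.25 and -0.20 at 24 h, and -2.21, -1.90 and -1.63 at 72 h. Both were lowest at 72 h, with no overlap with serum. Their log2 changes at 72 h were -1.91 (SE 0.16, adjusted p = 2.59e-06) and -2.05 (SE 0.31, adjusted p = 0.000203). Ascl2 rested on 8 to 10 reads per library at 72 h and 22 to 43 in serum. It reached the level needed for the test only through serum and 6 h libraries, and at 72 h it also passed without that filter (adjusted p = 0.000339, limma). Cdkn1c also passed at 24 h (-0.48, adjusted p = 0.0241), but not without 24 h replicate 3 (-0.30) or serum replicates 1 or 3 (-0.46 and -0.48).

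Next to Cdkn1c, Phlda2 and Slc22a18 rose. Phlda2, a maternally expressed gene that limits placental growth, read 4.84, 4.70 and 4.63 in serum, 5.14, 5.09 and 4.87 at 6 h, 6.42, 6.38 and 5.90 at 24 h, and 5.57, 5.71 and 4.96 at 72 h. Slc22a18, a maternally expressed transporter-like gene, read -1.55, -2.16 and -0.84 in serum, -0.17, -0.66 and -0.23 at 6 h, 1.11, 1.38 and 0.82 at 24 h, and 0.63, 0.82 and 0.45 at 72 h. Every 2i library of both genes lay above all serum libraries. Phlda2 rose by 1.51 (SE 0.20, adjusted p = 6.65e-05) at 24 h and 0.69 (SE 0.20, adjusted p = 0.0119) at 72 h. Slc22a18 rose by 1.16 (SE 0.30, adjusted p = 0.0207), 2.62 (SE 0.30, adjusted p = 2.53e-05) and 2.15 (SE 0.30, adjusted p = 0.00011) at the 3 times, with 6 to 22 reads per library in serum and 63 to 79 at 24 h. Phlda2 at 72 h lost its call without 72 h replicate 2 (0.54), and Slc22a18 at 6 h without 6 h replicates 1 or 3 or serum replicates 1 or 2 (0.84 to 1.14). Nap1l4, a nucleosome assembly gene at the end of the cluster, did not pass (0.01, 0.32 and 0.11). Kcnq1, the potassium channel gene that gives the cluster its name, held 0 to 2 reads per library in serum and at 6 h, 5 to 7 at 24 h and 3 to 5 at 72 h, and was too low to test.

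Plagl1, a paternally expressed zinc finger transcription factor also known as Zac1, was the member with the largest rise at 72 h and the only one with a higher call at all 3 times besides Slc22a18. It read -0.54, -0.90 and -0.34 in serum, 0.69, 0.71 and 1.01 at 6 h, 0.42, 0.15 and 1.03 at 24 h, and 1.84, 1.13 and 2.17 at 72 h. No 2i library overlapped with serum. The log2 changes were 1.39 (SE 0.29, adjusted p = 0.0062), 1.13 (SE 0.29, adjusted p = 0.00515) and 2.31 (SE 0.29, adjusted p = 4.67e-05), the last a 4.95-fold rise. The step from 24 to 72 h was 1.18 (adjusted p = 0.00955), but it did not pass in a fit of only the 6 libraries compared.

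Zdbf2, a paternally expressed zinc finger gene at chr1:63273265-63314576, and Snrpn, which encodes a splicing protein, fell from 6 h onward. Zdbf2 read 4.03, 4.03 and 4.09 in serum, 3.28, 3.40 and 3.43 at 6 h, 1.57, 1.18 and 1.82 at 24 h, and 1.72, 1.42 and 2.16 at 72 h. Its log2 changes were -0.68 (adjusted p = 0.0299), -2.53 (adjusted p = 1.31e-06) and -2.28 (adjusted p = 1.92e-06). The 6 h change kept its size but lost its call on leaving out any of the 6 libraries (log2 change -0.63 to -0.71). Without the filter on low values it also did not pass (adjusted p = 0.0531, limma).

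In the Snrpn cluster, linked in humans to Prader-Willi and Angelman syndromes, Snrpn and Ube3a fell. Snrpn read 5.92, 5.87 and 5.82 in serum, 5.43, 5.32 and 5.31 at 6 h, 4.74, 4.84 and 4.57 at 24 h, and 4.63, 4.59 and 4.46 at 72 h. Each later group lay below serum, with log2 changes of -0.52 (SE 0.10, adjusted p = 0.00425), -1.15 (SE 0.10, adjusted p = 3.71e-06) and -1.31 (SE 0.10, adjusted p = 1.07e-06). Ube3a, a ubiquitin ligase imprinted in neurons only, read 4.23, 4.23 and 4.28 in serum, 4.13, 4.13 and 4.10 at 6 h, 2.44, 2.09 and 2.19 at 24 h, and 2.72, 2.64 and 2.98 at 72 h. It was lowest at 24 h, with log2 changes of -2.01 (SE 0.12, adjusted p = 2.22e-07) at 24 h and -1.47 (SE 0.12, adjusted p = 1.41e-06) at 72 h. Mkrn3, a ring finger gene, read 0.53, 0.94 and 0.46 in serum, 0.84, 1.14 and 0.72 at 6 h, 1.58, 1.08 and 1.13 at 24 h, and 0.70, 1.04 and 0.60 at 72 h. It passed at 24 h alone, where all libraries lay above serum (0.62, adjusted p = 0.0163). With the trend along gene span removed that change was 0.17 and did not pass, nor did it without 24 h replicate 1 or serum replicates 1 or 3 (0.46 to 0.56). Ndn, a MAGE family gene, passed at none of the 3 times (0.17, 0.42 and 0.09).

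Magel2, the other MAGE family gene of that cluster, was under the level needed for the test, but its reads fell clearly. It had 82, 70 and 131 reads in serum, 18, 25 and 21 at 6 h, 10, 11 and 29 at 24 h, and 19, 19 and 19 at 72 h. All 2i libraries held fewer reads than any serum library. Without the filter, its log2 changes in limma were -2.05 (adjusted p = 0.000983), -2.62 (adjusted p = 4.93e-05) and -2.36 (adjusted p = 8.97e-05). Magel2 and Ndn are single-exon neighbours on one strand.

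At the Dlk1-Meg3 cluster on chromosome 12, Meg3, a maternally expressed non-coding RNA, read 2.81, 2.94 and 3.36 in serum, 1.67, 2.16 and 2.47 at 6 h, 0.40, 0.46 and 2.30 at 24 h, and 0.15, -0.33 and 1.65 at 72 h. All 2i libraries lay below serum, and replicate 3 was the highest at each time, far above the others at 24 and 72 h. The log2 change was -1.98 (SE 0.55, adjusted p = 0.00833) at 24 h and -2.55 (SE 0.55, adjusted p = 0.00231) at 72 h. Dlk1, the paternally expressed gene for a Notch ligand-like membrane protein, had too little RNA for the test. It held 56, 67 and 99 reads in serum, 86, 114 and 79 at 6 h, 61, 69 and 59 at 24 h, and 18, 12 and 11 at 72 h, so it fell after 24 h (log2 change at 72 h without the filter -2.53, adjusted p = 1.1e-05).

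Peg3 and Usp29, paternally expressed neighbours that encode a zinc finger protein and a ubiquitin peptidase, were higher at 6 h than later. Peg3 read 2.80, 2.78 and 2.95 in serum, 3.26, 3.32 and 3.61 at 6 h, 0.52, 0.56 and 1.39 at 24 h, and 1.25, 0.62 and 1.64 at 72 h. Usp29, whose row covers only 2610 bases, read -0.49, -0.44 and -1.09 in serum, 0.67, 0.81 and 0.34 at 6 h, -1.38, -1.72 and -2.04 at 24 h, and -0.82, -1.69 and -0.95 at 72 h. Both genes had every 6 h library above serum and every 24 h library below it. The 6 h change passed for Usp29 (1.28, SE 0.29, adjusted p = 0.0111) and not for Peg3 (0.56, SE 0.27, adjusted p = 0.214), and it was lost for Usp29 without 6 h replicate 2 (1.18). Usp29 reached the level needed for the test only through its 6 h libraries, as Slc22a18 did only at 24 and 72 h and Plagl1 only in 2i, so these 3 were let into the test by groups in which they were then called higher. Without the filter these calls also passed (Usp29 at 6 h, adjusted p = 0.0149). At 24 h both passed, Peg3 with -2.02 (adjusted p = 7.53e-05) and Usp29 with -1.04 (adjusted p = 0.00874). At 72 h Peg3 passed with -1.67 (adjusted p = 0.000314) and Usp29 with -0.48 did not (adjusted p = 0.187).

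H19 and Igf2, the maternal non-coding RNA and the paternal fetal growth factor that share enhancers and a control region, rose together at 72 h. H19 read 1.90, 1.92 and 2.13 in serum, 1.97, 2.10 and 2.20 at 6 h, 1.5, 1.96 and 2.20 at 24 h, and 2.55, 2.49 and 2.58 at 72 h. Igf2 read 3.75, 3.84 and 3.97 in serum, 3.76, 3.89 and 3.89 at 6 h, 3.43, 3.64 and 3.84 at 24 h, and 4.55, 4.47 and 4.63 at 72 h. For both genes only the 72 h libraries lay wholly outside the serum range. The log2 changes at 72 h were 0.55 (SE 0.16, adjusted p = 0.0122) for H19 and 0.70 (SE 0.11, adjusted p = 0.000381) for Igf2. At 24 h Igf2 was at -0.22 and did not pass (adjusted p = 0.119), but it passed with the replicate number as a block (adjusted p = 0.0465). With the trend along gene span removed, H19 was at 0.42 and did not pass. Igf2r, the maternally expressed receptor that clears IGF2, had a log2 change of 0.59 at 72 h that did not pass (adjusted p = 0.0813). Igf2r passed there with the replicate number as a block (adjusted p = 0.028, limma). Airn, the antisense RNA of its cluster, held 0 to 9 reads per library.

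Gnas, Slc38a4 and Grb10 each passed against serum at 1 time. Gnas, which encodes the stimulatory G protein alpha subunit among other products, read 3.83, 3.81 and 3.85 in serum, 4.09, 3.98 and 4.07 at 6 h, 4.47, 4.64 and 4.45 at 24 h, and 3.79, 3.72 and 3.60 at 72 h (24 h log2 change 0.69, SE 0.09, adjusted p = 8.41e-05). Slc38a4, a paternally expressed amino acid transporter, went the other way, with 6.13, 6.12 and 6.11 in serum, 5.94, 5.92 and 5.77 at 6 h, 5.56, 5.27 and 5.25 at 24 h, and 6.41, 6.15 and 6.37 at 72 h (24 h log2 change -0.76, SE 0.12, adjusted p = 0.000206). At 72 h neither passed against serum (-0.13 and 0.19). Grb10, a growth factor receptor adaptor, read 4.54, 4.44 and 4.57 in serum, 4.87, 4.83 and 4.93 at 6 h, 4.10, 4.30 and 4.57 at 24 h, and 3.82, 3.45 and 3.80 at 72 h. Its 72 h libraries all lay below serum (-0.83, SE 0.14, adjusted p = 0.00039). For these 3 genes the 6 and 72 h libraries all lay outside the serum range, above it at 6 h for Gnas and Grb10 and at 72 h for Slc38a4 and below it otherwise. The step from 24 to 72 h passed in each, with log2 differences of -0.82, 0.95 and -0.63. That of Grb10 did not pass in a fit of only the 6 libraries compared.

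Smaller changes were seen in Inpp5f and Trappc9. Inpp5f, an inositol phosphatase gene, read 1.57, 1.61 and 1.52 in serum, 1.52, 1.52 and 1.34 at 6 h, 1.14, 1.24 and 1.32 at 24 h, and 1.47, 1.30 and 1.47 at 72 h. Its 24 h change was -0.33 (adjusted p = 0.0186) and became 0.04 with the trend along gene span removed. It also lost its call without 24 h replicate 1 or serum replicates 1 or 2 (-0.28 to -0.33). Trappc9, a vesicle transport gene, read 1.28, 1.08 and 1.40 in serum, 1.17, 1.11 and 1.37 at 6 h, 1.31, 1.79 and 1.62 at 24 h, and 1.78, 1.73 and 1.59 at 72 h (72 h change 0.45, adjusted p = 0.0225). It lost its call on leaving out serum replicate 1 or 2 or 72 h replicate 1 or 2 (0.36 to 0.46).

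The other 8 tested members passed in no comparison with serum. They were Nap1l4, Ndn, Igf2r, Impact, Zrsr1, Commd1, H13 and Mcts2, with mean levels in serum from 1.98 (H13) to 5.55 (Nap1l4) and 72 h log2 changes from -0.30 (Mcts2) to 0.59 (Igf2r). Zrsr1 and Mcts2 are retrogenes that lie within introns of Commd1 and H13, and reads of a host intron and its guest on either strand cannot be told apart, since the TruSeq kit named in the labels does not mark strand. With the replicate number as a block, Impact passed at 6 h (0.26, adjusted p = 0.0301 in place of 0.0783). Under the block Nap1l4 (0.32, adjusted p = 0.0124), Commd1 (0.45, adjusted p = 0.0161) and Zrsr1 (-0.24, adjusted p = 0.0496) passed at 24 h (limma). At 72 h Zrsr1 (0.26, adjusted p = 0.0437) and Igf2r (0.59, adjusted p = 0.028) passed under it. Rasgrf1, a Ras exchange factor of neurons, had 0 to 2 reads in every library, which allows no statement on change.

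Split by the allele known to be expressed, of 16 paternally expressed members tested 3 were higher and 6 lower at 72 h, of 7 maternally expressed members 3 were higher and 3 lower, and of 8 that are imprinted in some tissues only 1 was higher and 2 lower. The shares over all genes at that time were 25.7% higher and 26.5% lower, and the classes were not tested against these. Between 24 and 72 h, 15 of the 31 members passed (48.4%), 7 higher and 8 lower, beside 31.6% of all genes (15.8% higher, 15.7% lower). Without 24 h replicate 3 that count was 20, with 6692 of all genes in place of 3886, and in a fit of only those 6 libraries it was 6, with 1587 of all genes.

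Among factors tied to writing, keeping or reading imprints, more were lower than higher at each time. Of 16 such genes, all tested, 5 were lower and 1 higher at 6 h, 13 lower and 1 higher at 24 h, and 10 lower and 1 higher at 72 h, with median log2 changes of -0.14, -1.06 and -0.71. Over all genes 6.48%, 29.1% and 26.5% were lower and 9.13%, 34.2% and 25.7% higher. Some of the 16 have long spans, such as Arid4b (136372 bases) and Smchd1 (130855), and changes at 24 h ran with span. Falls at 24 h could also be smaller in replicate 3, as in Zfp445 (0.96, 1.15 and 2.45, serum 4.13, 4.06 and 4.22). The part of span in these counts was not tested. The largest at 72 h were Dnmt3l (-5.65) and Dnmt3a (-2.37), which establish methylation in germ cells, and Dppa3 (2.02), which shields it in the zygote. Zfp57, the zinc finger that binds methylated imprinting control regions, fell by 2.02 at 6 h (adjusted p = 0.000406), by 1.67 at 24 h and by 0.72 at 72 h (adjusted p = 0.0448). It read 6.15, 6.16 and 6.29 in serum and 5.25, 5.08 and 6.11 at 72 h, and without the filter on low values the 72 h change did not pass (adjusted p = 0.0777). Of 42 further imprinted genes, 40 had a row and 21 were tested. Of these 1 was higher and 5 lower at 6 h, 7 and 9 at 24 h, and 8 and 8 at 72 h, so that 28.6%, 76.2% and 76.2% passed beside 15.6%, 63.3% and 52.2% of all genes. These shares were not tested against those of all genes and are no support for a difference. Peg12, Pon3 and Qpct also reached the level needed for the test only in 2i libraries of the groups in which they were then higher. At 6 h Pon3 was lower, and Peg12 and Qpct did not pass. The largest at 72 h were Adam23, a membrane adhesion gene (-3.69), Qpct, a glutaminyl cyclase gene (2.80), and Pon3, a paraoxonase gene (2.00).

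H3K9me2 was read as bound reads over each gene body, scaled to the total reads of the library, so a loss over the whole genome would not be seen. Of 22909 gene bodies with a mean of 10 or more reads over the 9 bound and input libraries, 35 were members. Inputs count in this mean, so bound reads alone can be fewer, as in Phlda2 (0 to 7 per library). Against input, the members had a median log2 ratio of -0.78 in serum, -0.67 at 24 h and -0.66 in LT2i, and all gene bodies -0.86, -0.92 and -1.74. In serum 4 of the 35 lay above 0, beside 26.5% of all gene bodies. The range ran from Phlda2 (-2.94) to Rasgrf1 (0.67), and Trappc9 (0.47), Kcnq1 (0.12) and H19 (0.03) were the others above 0. Of the members with no RNA row, Mirg stood at 0.40, Peg13 at -0.42, and Rian and Kcnq1ot1 at -0.50 each in serum. Across the 35 members the Spearman correlation between RNA and mark in serum was -0.36, and it was -0.61 across all gene bodies tested. Genes are not independent replicates, and neighbours share bins.

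**Figure D3:**
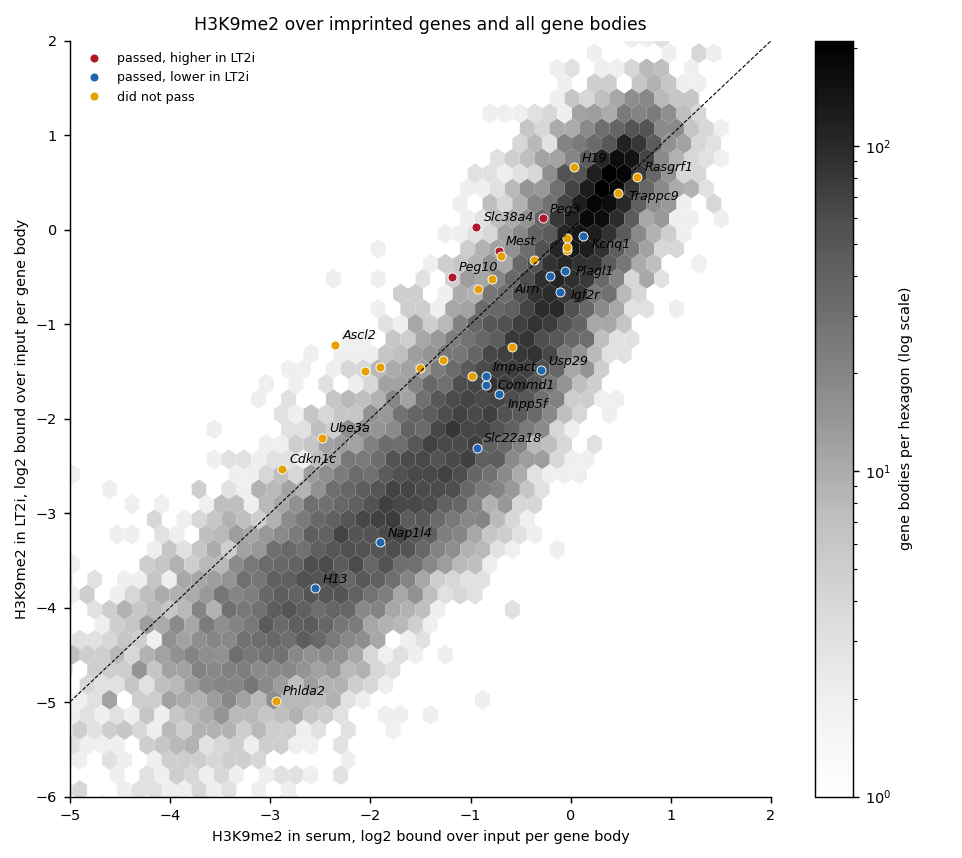
H3K9me2 (log2 bound over input per gene body, mean of 2 libraries) in LT2i against serum. Hexagons count the 22909 gene bodies tested, coloured points are the 35 imprinted genes and the dashed line marks equal levels. The median of all gene bodies moved from -0.86 to -1.74, and 15 of the 35 members, beside 22.5% of all gene bodies, lie above the line, among them Slc38a4, Peg10, Mest and Peg3, which passed as higher, and Ascl2 and H19, which did not.

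At 24 h of 2i no member and no gene body passed in limma, and 7 of the 35 members and 10.4% of all gene bodies had an unadjusted p under 0.05. In LT2i 15 members passed (42.9%), 4 higher and 11 lower, beside 57.3% of all gene bodies (6.68% higher, 50.6% lower). The median log2 change was -0.04 over the members and -0.69 over all gene bodies. When libraries were centred on the median gene body in place of total reads, 25 members passed, 23 higher and 2 lower, and over all gene bodies 7939 were higher and 3047 lower. A direction for the mark over a single gene therefore holds only relative to the scaling stated. Without serum replicate 1, 8 members and 8588 gene bodies passed, in place of 15 and 13127.

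The change of the mark was also read by the amount of RNA in serum. The 25% of gene bodies with the most RNA had a median log2 change of -1.05 in LT2i, and the 17 members among them 0.06. In the next 25% the medians were -0.93 over all and -0.09 over 14 members. In the 2 lower groups the members lay below the rest, with -1.56 for the 1 member (Slc22a18) beside -0.54, and -0.30 over 3 members beside -0.09 in the 25% with the least RNA.

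The 4 higher members were Slc38a4, Peg10, Peg3 and Mest. Slc38a4 had 351 and 366 bound reads in serum, 305 and 323 at 24 h and 625 and 452 in LT2i (inputs 719, 809 and 490). Peg10 had 67 and 67, 78 and 83, and 101 and 86 (inputs 160, 218 and 124). Once scaled to total reads, the log2 changes in LT2i were 0.73 (SE 0.12, adjusted p = 0.0044) and 0.64 (SE 0.09, adjusted p = 0.0034). Peg3 (0.37, adjusted p = 0.023) and Mest (0.31, adjusted p = 0.027) changed less. Mest lost its call on leaving out any 1 of the 4 libraries (0.27 to 0.34) and Peg3 on leaving out either serum library or LT2i replicate 1 (0.28 to 0.38), and both lost it in limma without a trend.

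Of the 11 lower members, Slc22a18 fell most, with 165 and 148 bound reads in serum, 131 and 153 at 24 h and 51 and 43 in LT2i (inputs 312, 371 and 220). Next was its neighbour Nap1l4, with 129 and 110, 76 and 72, and 41 and 35 (inputs 466, 538 and 357). The LT2i libraries of both lay far below those of serum, with log2 changes of -1.56 (SE 0.12, adjusted p = 0.0012) and -1.47 (SE 0.17, adjusted p = 0.0018). These were the 2 members that still passed as lower when centred on the median gene body, by -0.68 and -0.59. H13 (-1.29), Usp29 (-1.0), Inpp5f (-0.93), Commd1 (-0.85), Igf2r (-0.70), Impact (-0.65), Airn (-0.47), Plagl1 (-0.32) and Kcnq1 (-0.30) also passed. Usp29 was read over only 2 bins, with 36 and 37 bound reads in serum and 15 and 17 in LT2i. Its RefSeq promoter window, from chr7:6730333, lies outside its row, which starts at chr7:6961160. Centred on the median gene body, Airn (0.41, adjusted p = 0.0123), Kcnq1 (0.58, adjusted p = 0.00216) and Plagl1 (0.56, adjusted p = 0.0055) instead passed as higher (limma). Without serum replicate 1, the calls of H13, Impact, Airn, Plagl1 and Kcnq1 were lost, as were those of Airn and Kcnq1 without LT2i replicate 2 and of Impact without LT2i replicate 1. Those of Airn (-0.29) and Kcnq1 (-0.18) were also lost with the input subtracted. Phlda2, between Slc22a18 and Nap1l4, held only 5 and 7 bound reads in serum and 3 and 0 in LT2i and did not pass.

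**Figure D4:**
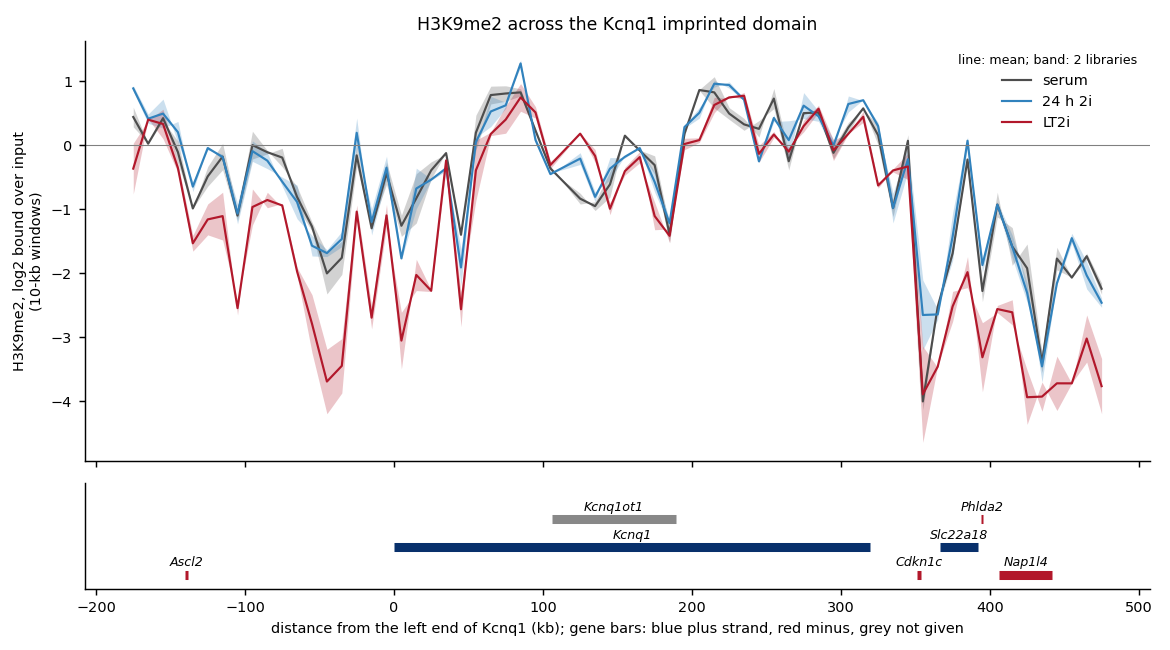
H3K9me2 (log2 bound over input in windows of 10 kb) across the Kcnq1 domain by distance from the left end of Kcnq1. Lines are means and bands span the 2 libraries of serum, 24 h of 2i and LT2i. Over Kcnq1 the LT2i line lies well below that of serum at 5, 15, 25 and 45 kb. It lies above serum at 125 and 135 kb and below serum at 175 and 205 kb, with smaller differences elsewhere. Over Slc22a18 to Nap1l4 it lies below.

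Within the Kcnq1 domain the mark thus changed unevenly. Kcnq1, a long gene with almost no RNA, had a log2 ratio to input of 0.12 in serum and -0.07 in LT2i. These means cover opposite changes within Kcnq1. The window at 5 kb went from -1.09 and -1.42 in the serum libraries to -3.49 and -2.61 in LT2i. That at 125 kb went from -0.92 and -0.75 to 0.18 and 0.19. Slc22a18 went from -0.93 to -2.31 and Nap1l4 from -1.90 to -3.31. Ascl2 and Cdkn1c, at 2 bins each, stood at -2.35 and -2.88 in serum and at -1.22 and -2.53 in LT2i, and neither passed when scaled to total reads (0.46 and 0.29). Ascl2 passed as higher when the input was subtracted (1.13, adjusted p = 0.00362, limma) and when centred on the median gene body (1.34), and Cdkn1c passed under neither.

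RNA and the mark can be set side by side, though RNA was read up to 72 h and the mark in LT2i. Of the 4 members with more H3K9me2 in LT2i, Mest, Peg10 and Peg3 had lower RNA at 72 h (-3.29, -2.44 and -1.67) and Slc38a4 did not pass there (0.19). Of the 11 with less, Slc22a18 and Plagl1 had higher RNA (2.15 and 2.31), 7 did not pass at 72 h and Airn and Kcnq1 were not tested. For Plagl1 the call of the mark was lost on leaving out any 1 of the 4 libraries (-0.26 to -0.38), and its direction rests on the scaling, since it passed as higher when centred on the median gene body (0.56, adjusted p = 0.0055, limma). Other members with strong falls in RNA did not change in the mark beyond the test, among them Nnat (-0.46, adjusted p = 0.31), Zdbf2 (0.15, adjusted p = 0.3), Meg3 (0.06, adjusted p = 0.59) and Cdkn1c (0.29, adjusted p = 0.72). Cdkn1c rested on 4 and 7 bound reads in serum and 11 and 3 in LT2i (SE 0.66). Nnat had 29 and 16 in serum and 19 and 10 in LT2i (SE 0.36). So few reads do not show a lack of change. The other members with higher RNA at 72 h did not pass in the mark either (limma). They were Sgce (-0.02, adjusted p = 0.89), Igf2 (0.02, adjusted p = 0.93), Trappc9 (-0.17, adjusted p = 0.19), H19 (0.32, adjusted p = 0.38) and Phlda2 (-2.11, adjusted p = 0.085). That holds for values scaled to total reads. Centred on the median gene body, Zdbf2 (1.03, adjusted p = 0.00218) and Meg3 (0.95, adjusted p = 0.000588) passed as higher, and Nnat (0.42) and Cdkn1c (1.18) did not pass. Of these members with higher RNA, Sgce (0.869, adjusted p = 0.00113) and Igf2 (0.903, adjusted p = 0.00703) also passed as higher when centred. So did Trappc9 (0.712, adjusted p = 0.00121) and H19 (1.202, adjusted p = 0.0113, limma), and Phlda2 (-1.23) did not pass. Centring thus gave higher calls both where RNA fell and where it rose. Whether the mark bears on the RNA of these genes was not tested.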

How the data were processed

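The list of 40 genes and the lists of imprint factors, further imprinted genes and markers were chosen with earlier results of these data known. Members called against serum are given in every library, others by range and counts, and of the 2 further lists the 3 largest called changes at 72 h. The 12 RNA-seq and 9 H3K9me2 ChIP-seq libraries were used and 59 bisulfite libraries were not analysed here, since they use build NCBIM37, for which no annotation was at hand.

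The RNA-seq table deposited by the authors holds 1 log2 value per gene and library, with length and depth allowed for and a shared 75th percentile (2.51). Genes without reads were entered as 0.9 reads. From these values whole reads were recovered by finding the step of 1 read in each gene (tolerance 0.03 reads) for 99.9% of genes; 592 single-exon genes gave 1 common value per kb. The ChIP-seq table, as deposited, holds log2 reads in 2-kb bins, set to the depth of the deepest library, and gave back whole reads (14396552 to 23785128 per library). Bins with few input reads are not in the table. The submitters' processing notes name Trim Galore 0.3.5, TopHat2 2.0.11, Bowtie2 and GRCm38, without saying which step used them.

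Genes with a log2 value of 0 or more in 3 libraries were tested by limma 3.58.1 (R 4.3.3) with a mean-variance trend in 1 fit of 12 libraries. Gene bodies with a mean of 10 or more reads over the 9 bound and input libraries were tested likewise in 1 fit of 6 bound libraries. The p-values were adjusted by Benjamini-Hochberg over all features. Log2 ratios to input used 0.5 added reads. The authors call the expression replicates biological, and nothing says so of the ChIP-seq libraries, whose spread may be technical. Deviations of same-numbered RNA libraries from their group means had r of 0.16 to 0.54 for serum with 6 h. With 24 h r was 0.11 to 0.47 and with 72 h 0.05 to 0.40. Some pairs of unlike number were no lower, such as serum replicate 2 with 24 h replicate 1 (0.34). Calls against serum that the replicate block changes stand beside the result. On simulated data for 72 h against serum (12306 genes) the fit recovered 68 of 101 log2 changes of 1 and 90 of 99 of 2. For H3K9me2 in LT2i (22909 gene bodies) it recovered 43 of 106 and 75 of 94. False calls were 12 and 5. Few features were changed in these simulations, while 52.2% of genes and 57.3% of gene bodies passed in the data. The rates therefore do not give the power of the real tests. Spans of the 4 genes without a row came from RefSeq GRCm38.p6. Intervals for single counts were not needed, since all values have replicates except inputs. Python 3.11.15 with pandas 2.3.3 made the tables.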

Additional observations from a re-analysis of the deposited data

Results flagged for a closer look

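The groups of 2 or 3 libraries were too small to look for single outlying libraries. The change against serum differed between 24 and 72 h, by a direct test of 72 h against 24 h (limma, adjusted p under 0.05), in 15 members. The log2 difference was -2.53 for Nnat, -1.44 for Cdkn1c, -1.33 for Ascl2, -1.25 for Mest, -0.82 for Phlda2, -0.82 for Gnas, -0.64 for Mcts2 and -0.63 for Grb10. It was 0.50 for Zrsr1, 0.54 for Ube3a, 0.65 for H19, 0.87 for Igf2r, 0.92 for Igf2, 0.95 for Slc38a4 and 1.18 for Plagl1. With the trend along gene span removed, Ube3a was at 0.28 and Ascl2 at -1.01, and neither passed. In a fit of only the 6 libraries compared, Ascl2, Grb10, H19, Igf2r, Mcts2, Phlda2, Plagl1, Ube3a and Zrsr1 did not pass. Mcts2 also did not pass without the filter on low values. Igf2r (0.59 to 0.83) and Mcts2 (-0.45 to -0.64) did not pass on leaving out 24 h replicate 1 or 2 or 72 h replicate 1 or 3. Of the 15, Cdkn1c, Mest and Nnat passed under every alternative tried.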

How the results depend on the processing

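Directions of called members held under the alternatives with 7 exceptions. With the trend along gene span removed, Inpp5f at 24 h turned to 0.041. Centred on the median gene body, H3K9me2 in LT2i turned to 0.41 in Airn, 0.0312 in Commd1, 0.188 in Igf2r, 0.236 in Impact, 0.584 in Kcnq1 and 0.56 in Plagl1. In counts of members, 6 h gave 3 with a log2 change of 1 or more also required, 3 with the stricter filter, 14 with only the 6 libraries and 3 to 4 on leaving out a library. The step from 24 to 72 h gave 5 with a log2 change of 1 or more and 6 with only the 6 libraries. H3K9me2 in LT2i gave 25 when centred and 8 to 13 on leaving out a library. Limma voom on the recovered reads, chosen after seeing the data, called 5, 18 and 20 members at 6, 24 and 72 h, of 33 tested, and 2286, 8848 and 7546 of 14478 genes.

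Of all genes, requiring a log2 change of 1 or more left 652, 3378 and 2579 called at the 3 times (1920, 7786 and 6429 without it) and 1174 for the step (3886). A fit of only the 6 libraries called 3585 genes at 6 h and 1587 for the step. Leaving out 1 library called 1230 to 1445 genes at 6 h and 2427 to 6692 for the step, and 8588 to 11844 gene bodies for H3K9me2 in LT2i. With the replicate block, 6, 21 and 20 members passed at 6, 24 and 72 h and 17 for the step, beside 2569, 8739, 7498 and 5791 of all 12306 genes. No RNA call of a member was lost under it. At 72 h it added Igf2r and Zrsr1, and for the step, where same-numbered libraries had r from -0.25 to 0.81, Mkrn3 and Sgce. For H3K9me2 in LT2i, where numbers did not pair (highest r 0.05), the block gave 15 members and 12923 gene bodies, with Ascl2 added (adjusted p = 0.0478) and Plagl1 lost (0.0513). Low reads limit Ascl2, Slc22a18 and Usp29 and, for the mark, Phlda2, Cdkn1c and Nnat, and 2 bound libraries a group limit H3K9me2.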
